A study of Mus musculus with 14 samples.

Results

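The 10 genes described here encode the acetyltransferases CBP (Crebbp) and p300 (Ep300), the acetyltransferase PCAF (Kat2b), the transcription factors CREB (Creb1), CREM (Crem) and ATF1 (Atf1), the CREB coactivators CRTC1, CRTC2 and CRTC3 (Crtc1, Crtc2, Crtc3), and CITED2 (Cited2), a protein that binds CBP and p300. They were taken by gene name, as the enzymes that the molecule TTK21 activates and their CREB partners. All 10 were found in both count tables, which list 26570 and 25933 genes, and all 10 passed the filter on low counts in both. RNA-seq counts were measured in the dorsal hippocampus of male C57BL6 mice (a C57BL6/J background in the study's methods) aged 8 months, in 14 libraries of 6 groups.

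In neurons, cAMP and calcium signals phosphorylate CREB, which is bound at cAMP response elements, and phosphorylated CREB then recruits CBP or p300. The same signals let CRTC proteins enter the nucleus, where they bind CREB and raise transcription of genes such as Fos and Nr4a1. CBP and p300 acetylate histones, and this pathway is well known for its part in hippocampal long-term memory. Transcript levels do not measure the activity of any of these enzymes or factors.

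Basal groups were resting, untrained wild-type (basal WT, n = 3) and THY-Tau22 mice (basal THY-Tau22, n = 2). The study's main text does not say whether these mice had been injected. A legend in its supplement calls them WT VEH and TAU VEH, the names of vehicle groups. In the learning experiment, WT mice given saline either stayed in the home cage (WT VEH_HC, n = 3) or learned the water maze (WT VEH, n = 2). Trained THY-Tau22 mice received either the carbon nanosphere carrier CSP (TAU VEH, n = 2) or CSP-TTK21, the carrier with the activator bound to it (TAU MOL, n = 2). THY-Tau22 mice are heterozygous for a mutated human tau transgene that the Thy1.2 promoter drives in neurons. WT mice received saline and THY-Tau22 mice CSP, so genotype and carrier cannot be told apart between TAU and WT groups of the learning experiment. The study left out 3 further learning libraries, of mice from a single litter, after their profiles had been seen.

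Thy1, whose promoter drives the transgene, was at 786 to 913 CPM (counts scaled to library size with TMM factors) in WT libraries and at 1805 to 2352 CPM in THY-Tau22 libraries, with no overlap between the genotypes. Libraries held from 24693713 to 52180305 counts, and the members from 193 to 34086 counts each. Choroid plexus markers, 14 genes of the epithelium that lines the ventricles, differed widely between groups. Their summed level was 50.4 to 205 CPM in WT VEH_HC, 1532 to 2393 CPM in WT VEH, 209 to 254 CPM in TAU VEH and 672 to 735 CPM in TAU MOL, and none of the 14 was at 0 in any library. Libraries also differed with the GC content of genes: Spearman's rho, across genes, between a gene's deviation from its mean over libraries and its GC content was 0.085 to 0.45 in the 5 WT learning libraries and -0.62 to -0.40 in the 4 THY-Tau22 learning libraries. The basal THY-Tau22 pair split in the same way, with rho of 0.48 in replicate 1 and -0.60 in replicate 2.

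Promoter sequences are shown for the members whose levels moved together or apart in trained THY-Tau22 mice, Crtc1, Crtc3 and Creb1, so that their base composition can be read beside the GC values given with the results. Each runs 5′ to 3′ on the gene's strand, up to 250 bases before the RefSeq start and ending before any base annotated as transcribed, and each was found once in the NCBIM37 (mm9) chromosome. Capitals mark TGACG on either strand, the core of the cAMP response element, and none of these 3 stretches holds it.
Crtc1, chr8:72963479-72963722, minus strand: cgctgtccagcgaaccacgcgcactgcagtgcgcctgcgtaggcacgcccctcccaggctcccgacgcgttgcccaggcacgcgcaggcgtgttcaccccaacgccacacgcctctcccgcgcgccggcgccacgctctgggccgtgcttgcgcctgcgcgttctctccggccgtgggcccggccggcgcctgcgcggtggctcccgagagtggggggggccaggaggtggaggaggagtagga
Crtc3, chr7:87833764-87834013, minus strand: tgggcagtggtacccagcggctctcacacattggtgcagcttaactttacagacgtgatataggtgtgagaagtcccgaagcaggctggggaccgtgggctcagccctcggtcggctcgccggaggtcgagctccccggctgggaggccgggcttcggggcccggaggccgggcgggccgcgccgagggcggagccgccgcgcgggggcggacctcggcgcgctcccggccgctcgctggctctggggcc
Creb1, chr1:64579128-64579377, plus strand: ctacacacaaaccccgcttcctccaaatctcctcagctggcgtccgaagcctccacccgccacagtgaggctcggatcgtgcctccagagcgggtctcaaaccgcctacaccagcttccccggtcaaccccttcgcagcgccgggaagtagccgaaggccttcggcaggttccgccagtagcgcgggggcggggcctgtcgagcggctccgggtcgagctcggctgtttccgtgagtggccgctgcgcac

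RefSeq promoters were at hand for 8 of the 10 members, all but Crtc2 and Crem. The full element TGACGTCA was in none of the 8 windows of 250 bases, against 1.62% of the 27025 RefSeq promoter windows of that length. TGACG was in 2 of the 8, those of Atf1 and Kat2b, and in 17.9% of all windows, so its share among the members is close to that of promoters at large. The first base of TGACG lay 90 bases before the Atf1 start and 61 bases before the Kat2b start of RefSeq, and 30 bases around each are shown because they are the 2 matches. The Kat2b match lies inside the gene as annotated in NCBIM37, which starts at 53706186 there.
Atf1, chr15:100058188-100058217, plus strand: gtgaccacgcggTGACGcagcacgccggcg
Kat2b, chr17:53706223-53706252, plus strand: aggattggccgcTGACGggtacttctggaa

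Of the 8 promoter windows, 7 were rich in GC, with 66.8% (Cited2) to 84.0% (Crebbp) G or C and 25 to 44 CpG pairs. The Kat2b window stood apart with 40.8% G or C and 6 CpG pairs, against medians of 52.0% and 6 over all promoters.

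The transcripts themselves ranged widely in base composition. Exons of Crtc1 held 56.1% GC, Crtc2 54.3%, Crebbp 53.5%, Crtc3 51.2%, Cited2 50.9%, Ep300 49.5%, Atf1 47.0%, Kat2b 46.3%, Crem 41.2% and Creb1 39.7%. The Crtc1 exons were richer in GC than those of 86.9% of all genes, and the Creb1 exons richer than those of 8.95%.

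Per kilobase of exon, Crtc1, the CRTC most abundant in neurons, was by far the highest of the 10 transcripts, with 26.2 to 63.8 CPM per kb over the 14 libraries. Cited2 followed with 12.6 to 16.9 CPM per kb. Ep300 was at 5.03 to 8.94 CPM per kb and Crebbp at 3.92 to 8.38 CPM per kb. Crem was the lowest, at 1.02 to 2.13 CPM per kb. Its count includes reads from the ICER transcripts, short repressor forms made from an internal promoter, which a count per gene cannot separate.

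Within the 9 learning libraries the order of levels per kb was Crtc1, Cited2, Ep300, Crebbp, Crtc2, Crtc3, Creb1, Kat2b, Atf1 and Crem. Each of the first 5 genes was above the next in 9 of 9 libraries, although the ranges of Ep300 and Crebbp, and of Crebbp and Crtc2, met. Crtc3 and Creb1 could not be ranked, since Crtc3 was above Creb1 in 5 of 9 libraries. Creb1 was above Kat2b, and Kat2b above Atf1, in 7 of 9 libraries each, and Atf1 was above Crem in all 9.

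**Figure D1:**
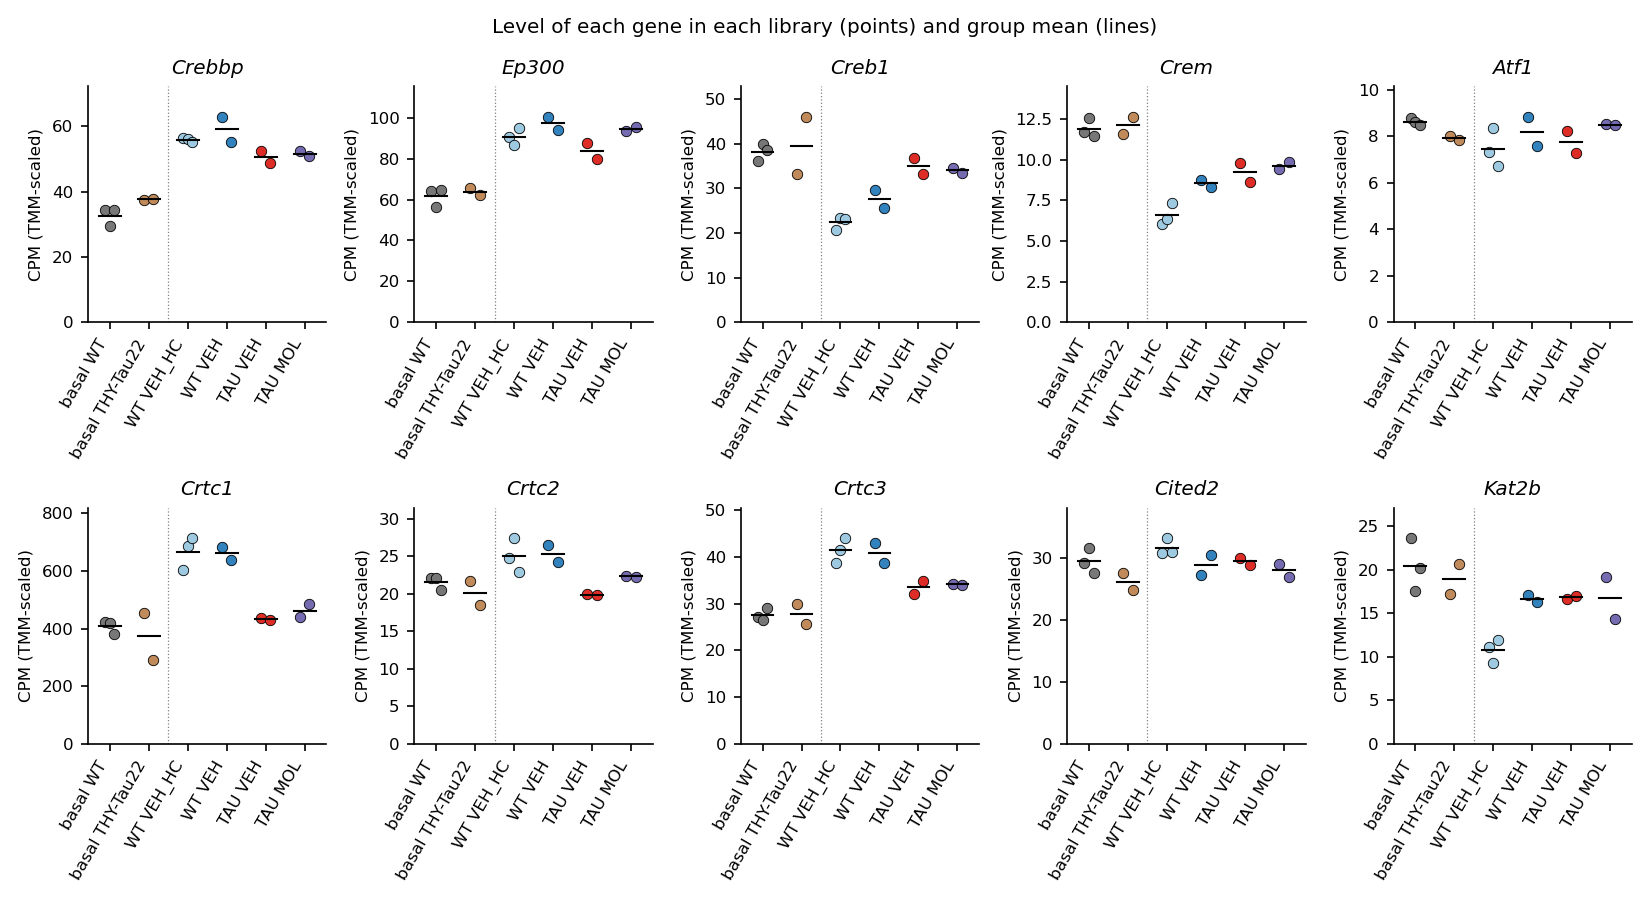
TMM-scaled CPM of each of the 10 genes on the vertical axis, from 0, in the 14 libraries (points) of the 6 groups, with group means as lines; the dotted line separates the 2 experiments, which were scaled separately. Kat2b lies lower in the 3 WT VEH_HC libraries (9.32 to 11.9 CPM) than in the other learning libraries, and Crtc1 lies lower in the 4 trained THY-Tau22 libraries (430 to 486 CPM) than in the 5 WT learning libraries (602 to 713 CPM).

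The basal comparison asks whether the tau transgene alone changes these transcripts. In untrained mice 0 of the 10 genes passed the test (edgeR quasi-likelihood test, Benjamini-Hochberg adjusted p under 0.05 and a log2 fold change beyond 0.2 in either direction), where 0.0245% of 16324 genes did. No member reached an unadjusted p under 0.05 either, and DESeq2 called 0 of them. The libraries of the groups did not overlap for 2 of the 10 genes, beside 18.5% of all genes tested.

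Crebbp, the gene of CBP, was one of these, at 34.4, 29.4 and 34.3 CPM in basal WT and 37.6 and 37.7 CPM in basal THY-Tau22. Both THY-Tau22 libraries were above all 3 WT libraries, with a log2 fold change of 0.20 (SE 0.12, 95% interval -0.06 to 0.47, edgeR adjusted p = 0.90). Ep300 was at 64.4, 56.5 and 64.4 CPM in basal WT and at 65.4 and 62.2 CPM in basal THY-Tau22, so the groups overlapped. Atf1, a CREB relative that pairs with it on DNA, was the other gene without overlap, at 8.48 to 8.81 CPM in basal WT and 7.85 and 8.03 CPM in basal THY-Tau22.

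For Crtc1 and Creb1, the members with the highest and the lowest GC content, the basal THY-Tau22 libraries lay on both sides of the WT libraries. Crtc1 was at 454 CPM in replicate 1 and 293 CPM in replicate 2, and Creb1 at 33.1 and 46.0 CPM. Basal WT libraries held 381 to 422 CPM of Crtc1 and 36.2 to 39.8 CPM of Creb1. Crtc2 (21.7 and 18.6 CPM) and Crtc3 (29.9 and 25.7 CPM) were also lower in replicate 2. In replicate 2 the choroid plexus markers summed to 1285 CPM, against 372 CPM in replicate 1 and 245 to 418 CPM in basal WT. Astrocyte markers, 5 genes, summed to 1841 and 2160 CPM in basal THY-Tau22 and to 1547 to 1662 CPM in basal WT, and none of them passed the test. Microglia markers summed to 393 to 398 CPM in basal THY-Tau22 and 347 to 363 CPM in basal WT. Oligodendrocyte markers summed to 6087 to 6281 CPM in basal THY-Tau22 and 6508 to 10808 CPM in basal WT, and no marker of either type passed. Over the group, the log2 fold change of Creb1 was 0.05, but -0.13 after correction for GC content and length and -0.22 with the choroid plexus level as a covariate. That of Crtc1 was -0.13, and then -0.15 and 0.14. No member passed in either fit.

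Training was compared in WT mice as WT VEH against WT VEH_HC, to see which genes differ after spatial training. The home cage mice did not swim, so learning cannot be told apart from swimming and handling. Kat2b, which encodes the acetyltransferase PCAF, was the 1 member of 10 that passed the test, where 8.4% of 16820 genes passed. It was at 11.2, 9.32 and 11.9 CPM in WT VEH_HC and at 17.1 and 16.3 CPM in WT VEH. Every trained library was above every home cage library, a rise of 54.4% (log2 fold change 0.63, SE 0.13, edgeR adjusted p = 0.019).

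Creb1 was at 20.7, 23.4 and 23.1 CPM in the home cage and 29.5 and 25.5 CPM after training, with no overlap. Its log2 fold change of 0.30 (SE 0.086) came with an edgeR adjusted p of 0.055, and DESeq2 gave 0.039. Crem was at 6.05, 6.32 and 7.35 CPM in the home cage and 8.77 and 8.34 CPM after training, again with no overlap. It had a log2 fold change of 0.38 (SE 0.11, edgeR adjusted p = 0.059, DESeq2 adjusted p = 0.070). Over 15 alternatives the adjusted p of edgeR or DESeq2 ran from 0.015 to 0.998 for Creb1 and from 0.019 to 0.98 for Crem. Both passed without WT VEH_HC replicate 3, at 0.32 for Creb1 and 0.47 for Crem (edgeR adjusted p = 0.045 and 0.019). Neither passed when any other library of these groups was left out. Both passed under library size alone (edgeR adjusted p = 0.039 and 0.042). After GC correction Creb1 was at 0.19 and Crem at 0.25 (edgeR adjusted p = 0.10 and 0.16). With the choroid plexus level as a covariate, which follows these groups closely, Creb1 was at 0.04 (SE 0.29) and Crem at -0.13 (SE 0.35). In all, 4 members did not overlap between these groups, the fourth being Cited2 at lower values after training, and 43.8% of all genes did not overlap.

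The genes of CBP, p300 and the 3 CRTC coactivators had log2 fold changes between -0.02 and 0.10 with training under TMM scaling. After correction for GC content and length Ep300 was at 0.20 and Crebbp at 0.18 (edgeR adjusted p = 0.14 for each), and the 3 CRTC genes were at 0.09 to 0.12. Crebbp was at 55.2 to 56.4 CPM in the home cage and 62.9 and 55.3 CPM after training. With TMM scaling the 95% interval of the log2 fold change ran from -0.05 to 0.25 for Ep300 and from -0.19 to 0.16 for Crtc1. The median log2 fold change was 0.090 over the 10 members and -0.003 over all genes tested.

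All 14 choroid plexus markers were higher in WT VEH than in WT VEH_HC, with a median log2 fold change of 3.69. Of the other markers, 1 of 6 for microglia and 1 of 4 for blood were higher, and 1 of 4 for dentate gyrus and 1 of 4 for CA3 were lower. The mean level of the choroid plexus markers was 0.07 to 1.48 log2 CPM in WT VEH_HC and 3.89 to 4.54 in WT VEH. With this mean as a covariate, Kat2b had a log2 fold change of -0.08 (SE 0.40, against 0.13 without it). No gene of the 16820 passed in this comparison. The covariate follows the groups so closely that this fit cannot separate the 2. Under the correction for GC content and length Kat2b kept its call, with a log2 fold change of 0.59 (edgeR adjusted p = 0.027). Kat2b lost its call when either WT VEH library was left out. Its log2 fold change was 0.59 without replicate 1 and 0.66 without replicate 2. These fits assume that the remaining library varies like the other groups. Over the 15 alternatives for Kat2b the adjusted p of edgeR or DESeq2 ran from 7.3e-07 to 0.994. Reads that align equally well to the copy Kat2b-ps were not counted, and neither were reads in the part shared with Gm6919, a pseudogene on the opposite strand, if strand was not used in counting.

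Trained THY-Tau22 and WT mice were compared as TAU VEH against WT VEH, to see what the tau pathology changes during learning. The 3 CRTC genes were lower in TAU VEH mice and Creb1 was higher, which makes 4 of the 10 members that passed the test, beside 14.4% of all genes. In a dissected tissue, fewer cells of a type and less RNA per cell cannot be told apart.

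Crtc1 showed the widest change of the 10. It was at 684 and 638 CPM in WT VEH and at 437 and 430 CPM in TAU VEH, with both THY-Tau22 libraries far below both WT libraries. The difference was 34.4% (log2 fold change -0.61, SE 0.087, edgeR adjusted p = 0.0014).

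Crtc2 was at 26.5 and 24.2 CPM in WT VEH and at 19.9 and 19.8 CPM in TAU VEH. Crtc3 was at 43.0 and 38.6 CPM in WT VEH and at 32.1 and 34.9 CPM in TAU VEH. For both, each TAU VEH library was below each WT VEH library, with log2 fold changes of -0.35 (SE 0.094, edgeR adjusted p = 0.028) and -0.29 (SE 0.085, edgeR adjusted p = 0.044). Crtc2 overlaps Gm10973 on the same strand and Crtc3 overlaps the antisense gene Gm15880, so reads in the shared parts may be missing from both counts.

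Creb1 moved the other way, from 29.5 and 25.5 CPM in WT VEH to 36.7 and 33.2 CPM in TAU VEH. Its log2 fold change was 0.35 (SE 0.094, edgeR adjusted p = 0.029), and the groups did not overlap. When each of the 4 libraries was left out in turn, Crtc1 passed each time, Crtc2 and Crtc3 in no fit, and Creb1 only without WT VEH replicate 1. In the fits without a call the log2 fold changes were -0.42 to -0.28 for Crtc2, -0.36 to -0.20 for Crtc3 and 0.25 to 0.42 for Creb1. Each such fit sets 1 library against 2 and assumes that the lone library varies like the other groups, so it is a weak check.

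The genes of the 2 enzymes that TTK21 activates were lower in both TAU VEH libraries than in both WT VEH libraries under TMM scaling, without passing the test. Crebbp was at 62.9 and 55.3 CPM in WT VEH and at 52.4 and 48.9 CPM in TAU VEH (log2 fold change -0.22, SE 0.077, edgeR adjusted p = 0.085). Ep300 was at 100.4 and 94.0 CPM in WT VEH and at 87.9 and 79.7 CPM in TAU VEH (log2 fold change -0.21, SE 0.075, edgeR adjusted p = 0.087). Both differences depended on the scaling: under library size alone they were -0.07 for each gene (edgeR adjusted p = 0.55 and 0.56), and the libraries overlapped. Crebbp, for example, held 2656 of 47735120 counts in TAU VEH replicate 1 and 2086 of 39319097 in WT VEH replicate 2. After GC correction Crebbp was at -0.13 (edgeR adjusted p = 0.41) and Ep300 at -0.28 (edgeR adjusted p = 0.11). With the choroid plexus covariate they were at -0.17 and -0.02 (SE 0.18 and 0.16, edgeR adjusted p = 0.68 and 0.96). With TMM scaling, 6 of the 10 members did not overlap between the groups, and 57.9% of all genes did not.

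Crem, Atf1, Cited2 and Kat2b overlapped between TAU VEH and WT VEH. Kat2b was at 16.6 and 17.0 CPM in TAU VEH, within 1 CPM of the trained WT libraries, and its 95% interval ran from -0.30 to 0.32 on the log2 scale. The median log2 fold change of the 10 members was -0.14, and that of all genes 0.004.

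The fold changes of the members went along with the base composition of their transcripts. Genes called lower in TAU VEH had a median exon GC content of 57.1% and genes called higher one of 44.0%, against 50.0% for all genes tested. Among the members, the 3 CRTC genes lie above 51% GC, and Creb1 has the lowest GC content of the 10. After correction for GC content and length in each library, 2.88% of all genes passed. Crtc1 alone of the 10 kept its call, with a log2 fold change of -0.44 (SE 0.10, edgeR adjusted p = 0.042). Crtc2 was then at -0.23, Crtc3 at -0.29 and Creb1 at 0.19, with edgeR adjusted p of 0.18, 0.14 and 0.17. Over 14 alternatives the adjusted p of edgeR or DESeq2 ran from 1.5e-11 to 0.38 for Crtc1, 0.0093 to 0.32 for Crtc2, 0.024 to 0.99 for Crtc3 and 0.0041 to 0.34 for Creb1.

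**Figure D2:**
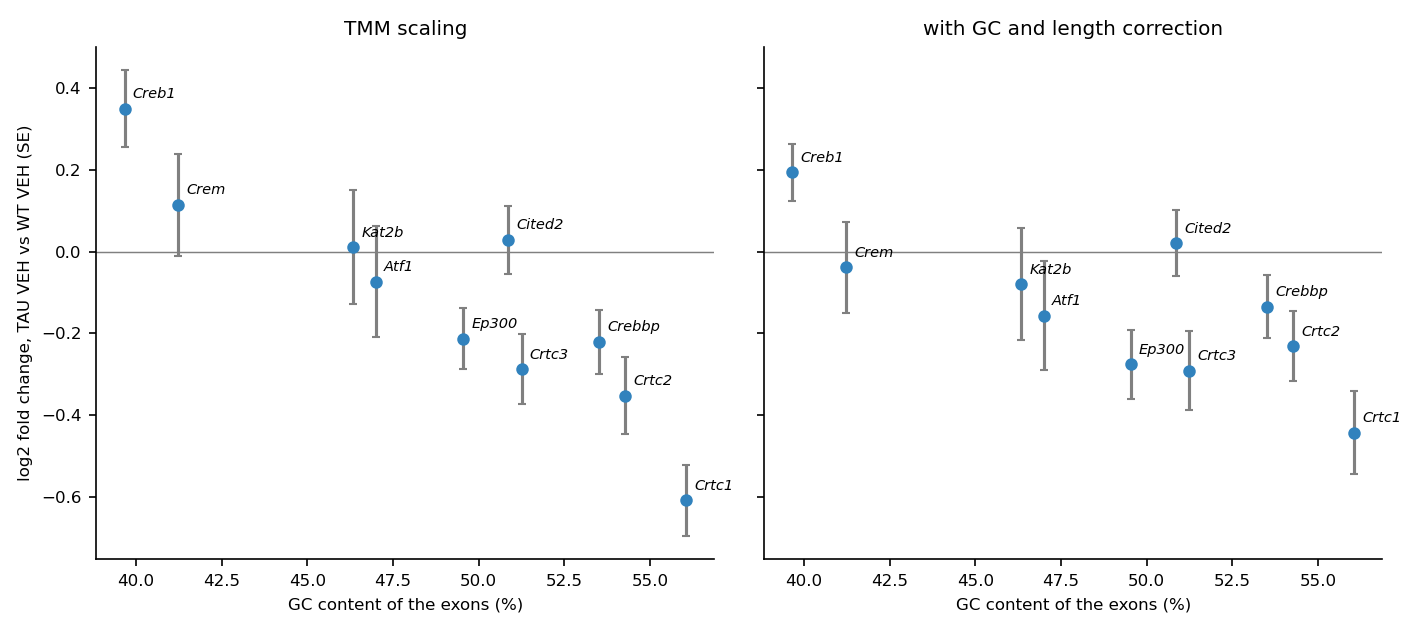
Exon GC content of the 10 genes (horizontal axis, percent) against their log2 fold change in TAU VEH vs WT VEH with standard errors (vertical axis), with TMM scaling on the left and after correction for GC content and length on the right. Points fall from Creb1 at 39.7% GC (0.35) to Crtc1 at 56.1% GC (-0.61) on the left, and from 0.19 to -0.44 for the same 2 genes on the right.

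Choroid plexus markers were lower in TAU VEH mice, 14 of 14, and 3 of 4 CA1 pyramidal cell markers were lower, with a summed level of 571 to 605 CPM in TAU VEH and 974 to 1046 CPM in WT VEH. Astrocyte markers were higher for 2 of 5, with sums of 1545 to 1678 CPM and 1215 to 1303 CPM, and 1 of 4 CA3 markers was higher. Among the thalamus (6), neocortex (4) and microglia (6) markers, 1 of each was lower. The mean choroid plexus level was 1.59 and 1.84 log2 CPM in TAU VEH and 4.54 and 3.89 in WT VEH. A covariate that follows the groups this closely cannot be separated from them, and the SE of Crtc1 rose from 0.087 to 0.18. With the choroid plexus level as a covariate no member and no gene passed the test. Among the 4 members that had passed, Creb1 was then at 0.53, Crtc2 at -0.59, Crtc1 at -0.38 and Crtc3 at 0.01, with edgeR adjusted p of 0.34, 0.32, 0.38 and 0.99, so 2 of the 4 changes were larger and 2 smaller than without it. Under library size alone the median of all genes moved by 0.15 on the log2 scale, and 2578 genes were called higher and 1020 lower in place of 608 and 1815. Then 2 members then passed, Crtc1 lower and Creb1 higher, with Crtc2 at -0.20 and Crtc3 at -0.14.

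CSP-TTK21 was compared with its carrier in trained THY-Tau22 mice, TAU MOL against TAU VEH, to see which transcripts the molecule changes. No member passed the test, and 0% of the 16820 genes passed by edgeR. Of all genes, 1064 had an unadjusted p under 0.05, and DESeq2 called 54 genes, none of them a member.

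Crebbp was at 52.4 and 48.9 CPM in TAU VEH and at 52.3 and 51.1 CPM in TAU MOL, overlapping, with a 95% interval of the log2 fold change from -0.14 to 0.20. Ep300 was at 87.9 and 79.7 CPM in TAU VEH and at 93.7 and 95.3 CPM in TAU MOL, without overlap. It was the 1 member with an unadjusted p under 0.05 (log2 fold change 0.17, SE 0.075, 95% interval 0.01 to 0.34, edgeR adjusted p = 0.77). No marker list had a gene called here, but choroid plexus markers had a median log2 fold change of 1.31, and CA1 markers summed to 830 to 836 CPM in TAU MOL and 571 to 605 CPM in TAU VEH. CA3 markers went the other way, with sums of 293 to 300 CPM in TAU MOL and 370 to 385 CPM in TAU VEH. With the choroid plexus covariate Ep300 was at 0.08, Crtc1 at -0.02 and Crtc2 at 0.29 (edgeR adjusted p = 0.88, 0.98 and 0.72). Crtc1, Crtc2 and Atf1 were also higher in both TAU MOL libraries than in both TAU VEH libraries, so 4 members did not overlap beside 38.9% of all genes.

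Crtc1 was at 437 and 430 CPM in TAU VEH and at 440 and 486 CPM in TAU MOL, a log2 fold change of 0.09 (SE 0.087, edgeR adjusted p = 0.95) with a 95% interval from -0.10 to 0.28. Creb1 was at 36.7 and 33.2 CPM in TAU VEH and at 34.6 and 33.4 CPM in TAU MOL. Kat2b varied widely in TAU MOL, at 19.1 and 14.3 CPM, on both sides of the TAU VEH pair. Over the 10 members the log2 fold changes ran from -0.07 (Cited2) to 0.17 (Ep300), with a median of 0.042, and the median over all genes was 0.009.

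The treated mice were also set against trained WT mice, TAU MOL against WT VEH. This comparison shares the WT VEH libraries with the one above. Crtc1 passed the test as the 1 member of 10, where 5.63% of all genes did, with TAU MOL libraries at 440 and 486 CPM and WT VEH libraries at 684 and 638 CPM (log2 fold change -0.51, SE 0.087, edgeR adjusted p = 0.010). The log2 fold change of Creb1 was 0.31 (SE 0.094, edgeR adjusted p = 0.083, DESeq2 adjusted p = 0.041), that of Crtc3 -0.26 (edgeR adjusted p = 0.11), and that of Crebbp -0.19 (edgeR adjusted p = 0.19).

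In this comparison 6 members did not overlap, beside 52.5% of all genes. Ep300 overlapped, at 93.7 and 95.3 CPM in TAU MOL and 100.4 and 94.0 CPM in WT VEH, with a 95% interval of the log2 fold change from -0.20 to 0.12. After correction for GC content and length no member passed, beside 0.149% of all genes, and Crtc1 was at -0.40 (edgeR adjusted p = 0.14). Under library size alone, which moved the median of all genes by 0.12, Creb1 passed beside Crtc1, and 6.44% of all genes passed. Choroid plexus markers were lower in TAU MOL for 8 of 14, with a median log2 fold change of -1.39, and with their level as a covariate Crtc1 was at -0.40 and did not pass (edgeR adjusted p = 0.18). In that fit 0.0119% of all genes passed. Of the other markers, 1 of 4 for CA1, 1 of 4 for CA3 and 1 of 6 for microglia were lower, and 1 of 5 for astrocytes was higher. Crtc1 was also lost when any 1 of the 4 libraries was left out, with log2 fold changes from -0.59 to -0.44. Over 14 alternatives the adjusted p of edgeR or DESeq2 ran from 7.2e-08 to 0.18 for Crtc1 and from 0.028 to 0.52 for Creb1.

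**Figure D3:**
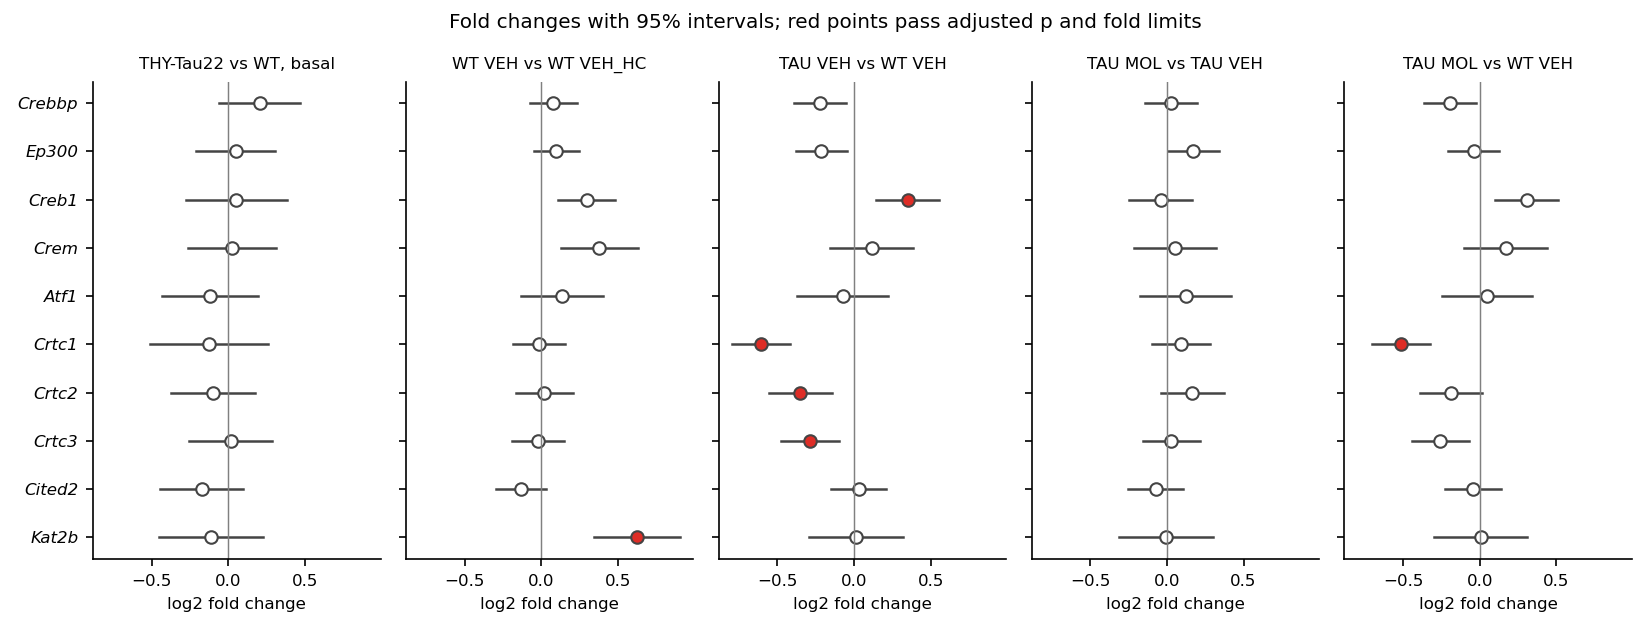
Log2 fold changes (horizontal axis) of the 10 genes in the 5 comparisons, with 95% intervals from the edgeR fits as bars and genes past both limits in red. Red points are Kat2b in WT VEH vs WT VEH_HC, Creb1 and the 3 CRTC genes in TAU VEH vs WT VEH, and Crtc1 in TAU MOL vs WT VEH, and there are none in the other 2 comparisons.

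With TMM scaling Crebbp lay above WT in the basal THY-Tau22 libraries and below WT in the trained ones. The genotype effects in basal and trained mice were therefore compared in 1 fit over the 14 libraries, a comparison added after the data had been seen, in which 0.129% of 17026 genes and no member passed. For Crebbp the basal effect exceeded the trained one by 0.39 on the log2 scale (SE 0.13, edgeR adjusted p = 0.43). For Crtc1 the difference was 0.45 (SE 0.22, edgeR adjusted p = 0.64), and it rested on which basal THY-Tau22 library was kept. It was 0.76 (SE 0.14, edgeR adjusted p = 0.016) without replicate 2 and 0.07 (SE 0.15, edgeR adjusted p = 0.92) without replicate 1. The experiments differ in training, may differ in injections and were deposited as separate tables, and these cannot be told apart.

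Levels also differed between the 2 experiments, which were scaled separately and were not tested against each other. Crebbp was at 29.4 to 37.7 CPM in the 5 basal libraries and at 48.9 to 62.9 CPM in the 9 learning libraries, and Ep300 at 56.5 to 65.4 CPM and 79.7 to 100.4 CPM. Creb1, Crem and Kat2b went the other way in untrained WT mice. Creb1 was at 36.2 to 39.8 CPM in basal WT and 20.7 to 23.4 CPM in WT VEH_HC, and Crem at 11.4 to 12.5 CPM and 6.05 to 7.35 CPM. Kat2b was at 17.5 to 23.6 CPM in basal WT and 9.32 to 11.9 CPM in WT VEH_HC, the group against which it passed the test of training.

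Across the 9 learning libraries, the genes most like Crebbp in the shape of their log2 CPM, among 9890 genes, were Mlxip, Ylpm1 and Csk, with root mean square differences of 0.043, 0.044 and 0.045. The median difference from Crebbp over all genes was 0.17. For Ep300 they were Herpud2, Irf2 and Fbxl14, with 0.032, 0.038 and 0.041 against a median of 0.17. Crebbp and Ep300 themselves deviated from their own means by 0.099 and 0.092 on this scale.

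Genes around the members were read from 4 lists, which were chosen with earlier results of these data known. CREB target genes, 22 genes with known cAMP response elements or induction by CREB, were one of them. With training, 9 of the 22 rose and none fell, with a median log2 fold change of 0.16 beside -0.003 for all genes. Of the 16820 genes tested, 900 were higher and 513 lower with training. Fos, an activity-induced AP-1 subunit, went from 4.79 CPM ± 0.72 (SD, n = 3) in WT VEH_HC to 19.2 CPM ± 3.0 (SD, n = 2) in WT VEH, a log2 fold change of 2.00 (edgeR adjusted p = 2.3e-05). Nr4a1, an orphan nuclear receptor, rose by 1.19 on the log2 scale, and Junb, another AP-1 subunit, stood at 45.9 CPM ± 1.8 (SD, n = 3) in the home cage and at 91.9 CPM ± 0.99 (SD, n = 2) after training (edgeR adjusted p = 7.6e-05). Under the GC correction 9 of the 22 were again called higher, where 4.55% of all genes passed. With the choroid plexus covariate none of the 22 passed, nor did any other gene.

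In TAU VEH against WT VEH, 6 of the 22 target genes were lower and none was higher. Calls over all genes leaned the same way, with 1815 lower and 608 higher. Nr4a1 was at 76.0 CPM ± 3.3 (SD, n = 2) in TAU VEH and 129 CPM ± 9.5 (SD, n = 2) in WT VEH, a log2 fold change of -0.77 (edgeR adjusted p = 0.0014). Per1, a circadian repressor with a CREB-bound promoter, was at -0.69 and Nr4a2 at -0.62. Under the GC correction 2 of the 22 passed, Nr4a1 (-0.54) and Nr4a2 (-0.65), beside 2.88% of all genes. Under library size alone 3 were higher and 5 lower, beside 2578 and 1020 of all genes.

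In basal mice, where 0.0245% of all genes passed, Nr4a1 was the 1 target gene that did, at 38.8 CPM ± 0.88 (SD, n = 2) in THY-Tau22 and 86.2 CPM ± 1.9 (SD, n = 3) in WT, a log2 fold change of -1.15 (edgeR adjusted p = 0.016). After GC correction 2 of the 22 were lower, Nr4a1 being one of them at -1.06, where 0.0674% of all genes passed. None of the 22 passed in TAU MOL against TAU VEH, where their median log2 fold change was 0.18 and that of all genes 0.009. Per1 (-0.47) was the 1 target gene of 22 that passed in TAU MOL against WT VEH, near the share of 5.63% over all genes. It was at -0.28 after GC correction (edgeR adjusted p = 0.31), when none of the 22 and 0.149% of all genes passed. Under library size alone 2 of the 22 were higher and none lower, beside 757 and 326 of all genes.

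**Figure D4:**
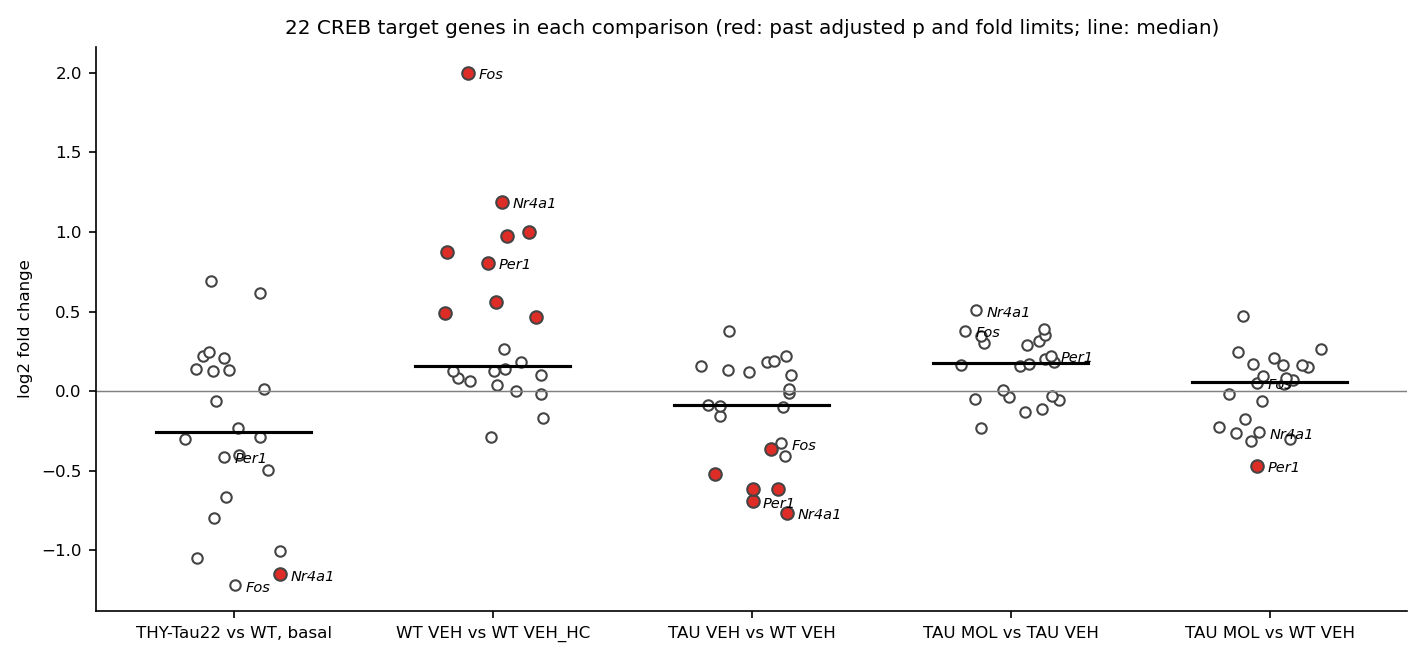
Log2 fold change (vertical axis) of each of 22 CREB target genes (points) in the 5 comparisons, with medians as lines and genes past both limits in red. With training 9 genes are red, all above 0, and in TAU VEH vs WT VEH 6 are red, all below 0; no point is red in TAU MOL vs TAU VEH.

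Among 26 kinases and regulators of CREB and the CRTC proteins, Sik1, a kinase that phosphorylates CRTC proteins and is itself a CREB target, rose with training by 0.97 on the log2 scale and was lower in TAU VEH (-0.61). Camkk1 (-0.31) and Mapk3 (-0.28) were lower with training, beside 513 of all genes lower and 900 higher. After GC correction Camkk1 did not pass (-0.26, edgeR adjusted p = 0.082). With the choroid plexus covariate none of the 26 did, nor did any other gene. In TAU VEH 3 of the 26 were higher and 5 lower, beside 608 and 1815 of the 16820 genes tested. After Sik1, the widest changes were those of Rps6ka3 (0.52), which encodes the CREB kinase RSK2, and Mark2 (-0.47), another kinase of CRTC proteins. After GC correction 1 of the 26 was higher and none lower, beside 82 and 402 of all genes. Under library size alone 9 were higher and 4 lower, beside 2578 and 1020 of all genes. In TAU MOL against WT VEH 3 were lower, namely Rps6ka4 (-0.40), Mark2 (-0.32) and Prkaca (-0.31), the last a catalytic subunit of protein kinase A. Over all genes 103 were higher and 844 lower in this comparison. None of the 26 passed there after GC correction, where 0.149% of all genes did. Under library size alone 4 were higher and none lower, beside 757 and 326 of all genes, so the direction of the calls turned with the scaling. No gene of this list passed in the other 2 comparisons.

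Of 14 other CREB and ATF genes, Atf3 (1.06), Crebrf (0.42) and Atf4 (0.25) rose with training, where 8.4% of all genes passed. The 3 rises remained under GC correction, where 4.55% of all genes passed. None of the 14 passed with the choroid plexus covariate, nor did any other gene. In TAU VEH 2 were higher and 3 lower, with Creb3l1 (-0.67), Atf5 (-0.36) and Atf6b (-0.33) the largest. Over all genes 608 were higher and 1815 lower. None of the 14 passed after GC correction, where 2.88% of all genes did. Under library size alone 3 were higher and 1 lower, beside 2578 and 1020 of all genes. Atf6b (-0.33) and Crebrf (0.33) passed in TAU MOL against WT VEH, beside 5.63% of all genes. There none did after GC correction, beside 0.149% of all genes. Under library size alone 2 were higher and none lower, beside 757 and 326 of all genes. None of the 14 passed in the basal comparison or in TAU MOL against TAU VEH.

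Of 12 other acetyltransferases and CITED genes, 1 passed with training and 1 in TAU VEH against WT VEH, where 8.4% and 14.4% of all genes passed, so the list did not stand above the background. Kat6b, a MYST family acetyltransferase, was lower with training (-0.29). Kat2a, the closest relative of Kat2b, was lower in trained TAU VEH mice (-0.26) and stood at -0.01 there after GC correction. Under library size alone, 2 of the 12 were higher and none lower in TAU VEH, beside 2578 and 1020 of all genes. No gene of this list passed in the basal comparison or in either comparison of TAU MOL.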

How the data were processed

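The authors sequenced poly-A libraries with single-end reads, mapped them to mm9 with TopHat2 2.0.10 and Bowtie2 2.1.0, and counted uniquely mapped reads per Ensembl gene with HTSeq 0.5.4p3. The deposited raw counts were tested, and the normalized signal deposited beside them served only as a check. Lines without values, 138 in the learning table, were left out. Groups came from the labels, what each group was given came from the study's text, and each library was taken as 1 mouse.

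Tests used edgeR 4.0.16 in R 4.3.3 (TMM factors, filterByExpr, quasi-likelihood F test) with Benjamini-Hochberg adjustment over all genes tested, 16324 in the basal fit of 5 libraries and 16820 in the learning fit of 9. Genes passed with adjusted p below 0.05 and a log2 fold change beyond 0.2 either way. The fits were tested on simulated data. The common coefficient of variation was 0.129 (basal) and 0.084 (learning); it holds the spread between mice together with technical differences between libraries. Intervals are 95% intervals of the fits. From each pathway list up to 3 passing genes with the widest change were named per comparison. Alternatives were DESeq2 1.42.0, scaling by DESeq2 size factors or by library size alone, no filter, no fold limit, a replicate block, a loess correction (span 0.3) for exon GC content and length, a choroid plexus covariate, only the groups compared, and leaving out each library. GC content came from NCBIM37 with GENCODE genes. Members and lists were chosen with earlier results of these data known.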

Additional observations from a re-analysis of the deposited data

Results flagged for a closer look

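The effect of the THY-Tau22 genotype on Crebbp differed in direction between the experiments under TMM scaling: both basal THY-Tau22 libraries were above all 3 basal WT libraries, and both TAU VEH libraries were below both WT VEH libraries. The difference of the effects was 0.39 on the log2 scale (SE 0.13, edgeR adjusted p = 0.43) and 0.34 after correction for GC content and length (edgeR adjusted p = 0.40). Leaving out each of the 9 libraries in turn gave 0.29 to 0.49, with edgeR adjusted p from 0.10 to 0.91. The position of the trained libraries depended on TMM scaling: under library size alone the trained effect was -0.07 (SE 0.080, edgeR adjusted p = 0.55) and the TAU VEH and WT VEH libraries overlapped. The difference did not pass the correction over all genes, and its cause was not tested.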

How the results depend on the processing

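Of 808 values of a member under an alternative, 675 kept their direction and side of the threshold, 82 changed sign without passing in either fit, 32 no longer passed and 17 newly passed. Another 2 changed sign from a passing value: with the choroid plexus covariate Kat2b was at -0.079 (SE 0.40) in WT VEH vs WT VEH_HC and Crtc3 at 0.0095 (SE 0.16) in TAU VEH vs WT VEH. Most of the 675 belong to members that had not passed and could not lose a call. The 32 and these 2 all come from the few calls of the fit reported. Those were 1 with training, 4 in TAU VEH vs WT VEH and 1 in TAU MOL vs WT VEH, each with 14 or 15 alternatives. With training, 1 member passed in the fit reported, 2 with DESeq2, 3 under library size alone, 3 without the low-count filter, 2 with the replicate block and GC correction together, and 0 with the covariate. The shares of all genes tested were, in the same order, 8.4%, 13.8%, 10.2%, 10.4%, 10.4% and 0%. In TAU VEH vs WT VEH 4 members passed, but 3 with DESeq2 size factors in edgeR (without Crtc3, at -0.27, edgeR adjusted p = 0.058), 2 under library size alone, 1 with GC correction, 2 with the block and GC correction, and 0 with the covariate. Here the shares of all genes were, in order, 14.4%, 14.1%, 21.4%, 2.88%, 4.60% and 0%. In TAU MOL vs WT VEH 1 passed, against 2 with DESeq2, library size alone, no filter or only the groups compared, and 0 with GC correction, with it and the block, or with the covariate. Of all genes 5.63% passed in the fit reported. In the others the shares were, in order, 14.2%, 6.44%, 6.13%, 9.19%, 0.149%, 0.565% and 0.0119%. Leaving out each library gave 0 to 3 members with training, 1 to 2 in TAU VEH vs WT VEH, 0 to 1 in the difference of genotype effects, and 0 in the other comparisons. Whether replicate numbers pair the libraries is not known. The deviations of same-numbered libraries correlated at -0.20 to 0.43. In groups of 2 libraries the deviations mirror each other, so this check cannot decide the question. With the replicate block 3 members passed with training, 5 in TAU VEH vs WT VEH and 1 in TAU MOL vs WT VEH. Over all genes 17.8%, 16.6% and 7.85% passed with the block in these comparisons. The member gained in TAU VEH vs WT VEH was Ep300, at -0.21 with the block and -0.28 with the block and GC correction (edgeR adjusted p = 0.044 in each). Those gained with training were Creb1 and Crem with the block (edgeR adjusted p = 0.047 and 0.023) and Ep300 with the block and GC correction (0.27, edgeR adjusted p = 0.029), when Crtc1 was at 0.21 (edgeR adjusted p = 0.13). Except where stated, the cause was not tested.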
